A study of Mus musculus with 12 samples.

Results

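Endoplasmic reticulum stress genes were examined in the contused spinal cord of mice that lack interleukin-1 alpha or interleukin-1 beta. The set held 10 genes named by symbol (Atf4, Ddit3, Xbp1, Hspa5, Nupr1, Trib3, Creld2, Dnajc3, Herpud1 and Sdf2l1), and all 10 were among the 19938 genes measured. Each gene was represented by its brightest probe set, and 9 of the 10 had only 1 on the array. Dnajc3 had 2, which held the same values and counted as 1 measurement.

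RNA came from 3 groups of 4 arrays, namely Il1a KO mice, Il1b KO mice and wild-type C57BL/6 mice, with both knockouts on a C57BL/6 background. All mice were 8 to 12 weeks old, and every cord had received a contusion of 50 kdyn. The 6 mm of cord around the lesion was collected at 24 h and its total RNA was hybridised to 1-colour Affymetrix arrays. Every group was injured and uninjured cord was not analysed here, so the values compare genotypes after injury and do not measure the response to injury itself. The labels call the arrays biological replicates without naming animals, so the tests measure the spread between these arrays. The sources used here do not give the design of the deletions.

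The endoplasmic reticulum folds secreted and membrane proteins, and an excess of unfolded protein there switches on the unfolded protein response. It has 3 sensors: PERK (encoded by Eif2ak3) favours translation of ATF4, IRE1 (Ern1) splices the Xbp1 messenger RNA, and ATF6 is cut by Golgi proteases into a transcription factor. ATF4 and its target CHOP (encoded by Ddit3) drive stress genes such as Trib3 and Nupr1, whereas ATF6 and spliced XBP1 drive chaperones such as Hspa5 and Dnajc3. In the injured spinal cord the response has been described in neurons and in oligodendrocytes. ATF4 is controlled largely at translation and XBP1 by splicing, and a gene-level RNA value measures neither step.

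Promoter windows of RefSeq on GRCm38.p6 were available for all 10 genes, each running from 250 bases before to 50 bases after the gene's start. A set of 4 short motifs of the response was searched for on both strands. The ER stress element ERSE, which ATF6 is known to bind with NF-Y, reads CCAAT, then 9 bases of any kind, then CCACG. It was found in Hspa5, Creld2 and Dnajc3 and in 0.119% of all 32851 windows. Its variant ERSE-II, which reads ATTGG, any base, then CCACG, was found in Herpud1 and in 0.0365% of windows. The C/EBP-ATF response element CARE, bound by ATF4, was written as TGATGNAA and was found in Nupr1, Trib3 and Herpud1 and in 3.97% of windows. The core of the XBP1 element, TGACGTGG, was in none of the 10 and in 0.676% of windows. None of the matches in these genes overlapped another. A match describes letters in the window and does not show a bound site.

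The windows with an ERSE or ERSE-II match belong to genes whose arrays are set side by side below, and that of Nupr1 to the gene with the largest difference. Capitals mark the motif matches, read 5′ to 3′ on the strand of the gene.
Hspa5, chr2:34771840-34772139, plus strand: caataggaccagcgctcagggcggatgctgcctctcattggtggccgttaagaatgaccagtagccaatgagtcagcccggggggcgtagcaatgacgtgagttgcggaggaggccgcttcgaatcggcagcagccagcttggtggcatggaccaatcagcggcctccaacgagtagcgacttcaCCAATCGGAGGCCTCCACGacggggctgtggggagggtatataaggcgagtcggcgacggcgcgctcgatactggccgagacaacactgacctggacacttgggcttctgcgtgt
Creld2, chr15:88819396-88819695, plus strand: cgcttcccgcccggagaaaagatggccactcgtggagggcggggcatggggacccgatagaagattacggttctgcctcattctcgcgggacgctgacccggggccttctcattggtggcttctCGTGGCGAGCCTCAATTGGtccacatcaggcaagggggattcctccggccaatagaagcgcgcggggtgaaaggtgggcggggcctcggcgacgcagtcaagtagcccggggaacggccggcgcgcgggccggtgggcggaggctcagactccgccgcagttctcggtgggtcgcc
Dnajc3, chr14:118937682-118937981, plus strand: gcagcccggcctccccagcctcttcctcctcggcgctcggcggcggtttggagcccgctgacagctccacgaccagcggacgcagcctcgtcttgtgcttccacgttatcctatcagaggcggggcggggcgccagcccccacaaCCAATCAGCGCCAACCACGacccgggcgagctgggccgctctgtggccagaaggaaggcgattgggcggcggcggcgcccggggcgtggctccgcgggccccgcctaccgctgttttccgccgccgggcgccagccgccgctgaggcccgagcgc
Herpud1, chr8:94386179-94386478, plus strand: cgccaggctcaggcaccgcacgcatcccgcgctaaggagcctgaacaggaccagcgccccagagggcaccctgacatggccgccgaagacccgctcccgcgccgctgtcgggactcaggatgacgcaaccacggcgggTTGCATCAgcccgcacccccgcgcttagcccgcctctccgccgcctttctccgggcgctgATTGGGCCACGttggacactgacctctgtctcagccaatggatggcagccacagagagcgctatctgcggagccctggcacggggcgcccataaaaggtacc
Nupr1, chr7:126625421-126625720, minus strand: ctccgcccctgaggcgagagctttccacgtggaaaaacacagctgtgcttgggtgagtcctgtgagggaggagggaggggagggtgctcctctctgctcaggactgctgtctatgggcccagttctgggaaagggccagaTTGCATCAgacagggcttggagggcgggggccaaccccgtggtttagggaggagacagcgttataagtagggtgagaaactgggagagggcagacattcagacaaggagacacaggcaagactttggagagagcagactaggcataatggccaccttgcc

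Counting the first transcribed base as 1 and the base before it as -1, the ERSE of Hspa5 lay at -65 to -47 and that of Dnajc3 at -105 to -87, both on the strand of the gene. The ERSE of Creld2 lay on the opposite strand, at -126 to -108. In Herpud1 the ERSE-II match spanned -52 to -42 and the CARE match -112 to -105. The CARE match of Nupr1 lay at -110 to -103 and that of Trib3 at 15 to 22, downstream of the start.

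The medians of the 12 arrays ran from 7.67 to 7.72 (log2), and the correlation across genes was 0.993 to 0.999 for each pair of arrays. Il1b averaged 6.42 ± 0.183 in the Il1b KO, against 7.83 ± 0.161 in wild type (SD, n = 4 each), and Il1a averaged 4.97 ± 0.0749 in the Il1a KO, against 5.87 ± 0.232 in wild type (SD, n = 4 each). Both targeted genes passed the test in their own knockout (limma adjusted p = 2.64e-06 for Il1b and 0.00372 for Il1a). The Il1b KO also had less Il1a than wild type (-0.77 on the log2 scale, limma adjusted p = 0.0039). Between the knockouts Il1a did not pass (log2 difference -0.13, limma adjusted p = 0.85), so its value does not tell the knockouts apart. One array stood apart by sex-linked genes: Il1a KO replicate 1 had an Xist value of 6.47 and an Eif2s3y value of 9.16, where all other arrays had Xist at 11.89 or more and Eif2s3y at 3.94 or less. Cord cell types were present in every array: the mean log2 value was 11.05 to 11.15 over 15 neuronal markers, 11.05 to 11.18 over 10 astrocyte markers and 11.49 to 11.83 over 10 markers of mature oligodendrocytes. In such a mixed tissue, fewer cells of a type and less RNA per cell cannot be told apart.

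None of the 10 genes passed the test in any comparison. By limma, with p adjusted over all 19938 genes, 0 of 10 passed in the Il1a KO against wild type, 0 of 10 in the Il1b KO against wild type and 0 of 10 between the knockouts. Over all genes 0.171%, 0.813% and 0.652% passed in these comparisons, so no call among 10 genes is close to the background. At an unadjusted p under 0.05, 2 of 10 passed in the Il1a KO, 4 of 10 in the Il1b KO and 5 of 10 between the knockouts, beside 8.32%, 13% and 7.79% of all genes. The log2 fold changes of the 10 genes ran from -0.29 to 0.09 in the Il1a KO, from -0.10 to 0.14 in the Il1b KO and from -0.28 to 0.12 between the knockouts. Their medians were -0.02, -0.01 and -0.08, beside 0.00, 0.00 and -0.00 over all genes. The knockouts were compared with the same 4 wild-type arrays, and each knockout enters 2 of the 3 comparisons, so these values are not independent. The 10 genes were also chosen with earlier results of these data known, so their counts beside those of all genes are a description.

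**Figure D1:**
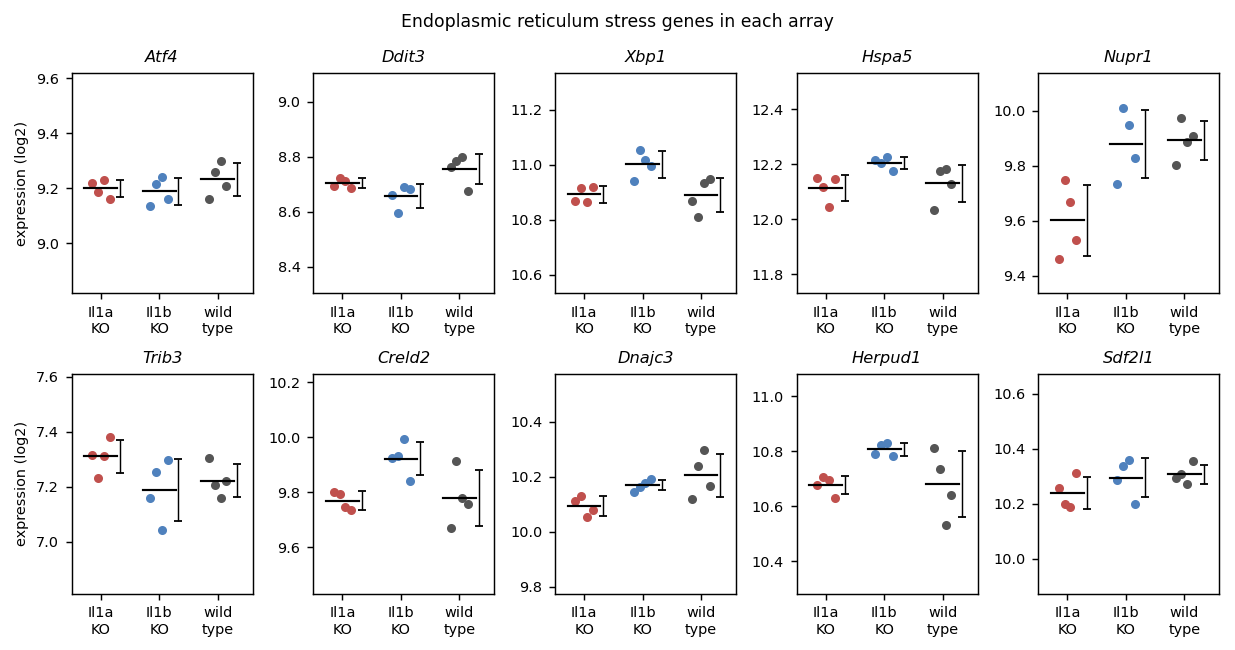
Expression on the log2 scale (vertical axes, which do not start at 0 and have the same span in every panel) of the 10 endoplasmic reticulum stress genes in the 4 arrays each of Il1a KO, Il1b KO and wild type. Points are arrays, black lines are group means and bars are 1 SD; Nupr1 in the Il1a KO is the group that lies farthest from the others.

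Among the chaperone and quality-control genes, 4 of 5 had Il1a KO arrays that all lay below the Il1b KO arrays, beside 4.69% of all genes. This count is a description, since the genes were chosen with earlier results of these data known. Hspa5 encodes BiP, the main luminal chaperone and the regulator of all 3 sensors. Its values in replicates 1 to 4 were 12.15, 12.12, 12.05 and 12.15 in Il1a KO, 12.22, 12.20, 12.23 and 12.18 in Il1b KO, and 12.03, 12.17, 12.18 and 12.13 in wild type. All Il1b KO arrays lay above all Il1a KO arrays, while wild type overlapped both. The log2 difference was -0.09 (95% interval -0.18 to 0.00) between the knockouts, with 0.07 (-0.02 to 0.17) for the Il1b KO against wild type and -0.02 (-0.11 to 0.08) for the Il1a KO against wild type. The limma adjusted p of these 3 values were 0.643, 0.478 and 0.981.

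Creld2 encodes a protein of the endoplasmic reticulum lumen induced under stress. Its values were 9.80, 9.79, 9.75 and 9.73 in Il1a KO, 9.92, 9.93, 9.99 and 9.84 in Il1b KO, and 9.67, 9.92, 9.78 and 9.76 in wild type. The Il1b KO arrays were the highest as a group, with 1 wild-type array among them. The Il1a KO lay below the Il1b KO without overlap, by 0.15 on the log2 scale (log2 difference -0.15, SE 0.0516, limma adjusted p = 0.401). Against wild type the Il1b KO had a log2 fold change of 0.14 (95% interval 0.03 to 0.25, limma adjusted p = 0.268) and the Il1a KO one of -0.01 (-0.12 to 0.10, limma adjusted p = 0.993).

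Herpud1 encodes a membrane protein that assembles the machinery of endoplasmic-reticulum-associated degradation. It had 10.68, 10.71, 10.69 and 10.63 in Il1a KO, 10.79, 10.82, 10.83 and 10.78 in Il1b KO, and 10.81, 10.73, 10.53 and 10.64 in wild type. The 4 Il1b KO arrays lay close together, whereas the wild-type arrays spread across the Il1a KO values and into those of the Il1b KO. Between the knockouts the log2 difference was -0.13 (SE 0.0528, limma adjusted p = 0.563), again without overlap. Herpud1 lies on chromosome 8 with 33 measured genes between it and Tox3, a gene that rose in the Il1a KO (log2 fold change 0.62, limma adjusted p = 1.08e-04). Herpud1 itself had a log2 fold change of -0.00 in the Il1a KO (95% interval -0.12 to 0.11), and 0 of its 20 nearest measured neighbours passed in any of the 3 comparisons.

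Dnajc3 encodes p58IPK, a co-chaperone of BiP that also restrains PERK. Its values were 10.11, 10.13, 10.05 and 10.08 in Il1a KO, 10.15, 10.16, 10.18 and 10.19 in Il1b KO, and 10.12, 10.24, 10.30 and 10.17 in wild type. The Il1a KO arrays lay below every Il1b KO array and overlapped wild type through wild type replicate 1. The log2 fold change was -0.11 in the Il1a KO against wild type (95% interval -0.20 to -0.02, limma adjusted p = 0.465), -0.04 in the Il1b KO (-0.13 to 0.06, limma adjusted p = 0.766) and -0.08 between the knockouts (limma adjusted p = 0.723). Sdf2l1, a partner of BiP in the lumen, had values of 10.26, 10.20, 10.19 and 10.31 in Il1a KO, 10.29, 10.34, 10.36 and 10.20 in Il1b KO, and 10.29, 10.31, 10.27 and 10.35 in wild type. These groups overlapped, and its log2 fold changes were -0.07, -0.01 and -0.06 in the 3 comparisons (limma adjusted p of 0.778, 0.937 and 0.833).

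Xbp1 encodes the transcription factor that IRE1 activates by splicing. Its values were 10.87, 10.92, 10.86 and 10.92 in Il1a KO, 10.94, 11.05, 11.02 and 10.99 in Il1b KO, and 10.87, 10.81, 10.93 and 10.95 in wild type. The Il1b KO was the highest group, and its lowest array lay above every Il1a KO array but below the highest wild-type array. The log2 difference was -0.11 between the knockouts (95% interval -0.20 to -0.02, limma adjusted p = 0.504) and 0.11 for the Il1b KO against wild type (0.02 to 0.20, limma adjusted p = 0.279). For the Il1a KO against wild type it was 0.00 (-0.09 to 0.09, limma adjusted p = 0.999).

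In Hspa5, Creld2, Herpud1, Dnajc3 and Xbp1, the 4 Il1a KO arrays and the 4 Il1b KO arrays did not overlap, with the Il1a KO lower each time. That is 5 of 10 genes, beside the same 4.69% of all genes lower in the Il1a KO without overlap and 7.24% without overlap in either direction. These 5 are grouped by this outcome and are not a functional class. Because the 10 genes were chosen with earlier results known and share the same arrays, the count is a description and not a test. The chaperone partner Sdf2l1, the transcription factors Atf4 and Ddit3, and Nupr1 and Trib3 overlapped between the knockouts. With the arrays re-normalised or centred on their medians the count was 4 of 10, and the share of all genes was not computed there. Xbp1 was the one of the 5 with no motif match in its window. The sizes were small, at most a 1.11-fold lower level, and 0 of the 5 passed the adjusted test. Against wild type, 1 of 10 genes (Nupr1) had no overlap in the Il1a KO, beside 5.06% of all genes, and 0 of 10 in the Il1b KO, beside 7.00% of all genes. Of the 5 genes, Hspa5, Creld2, Herpud1 and Xbp1 had a positive log2 fold change in the Il1b KO against wild type, and Dnajc3 a negative one in both knockouts. Without wild type replicate 1 or Il1a KO replicate 2 the count without overlap in the Il1a KO was 3, and without wild type replicate 4 or Il1a KO replicate 4 it was 2. In the Il1b KO it was 2 without wild type replicate 4 or Il1b KO replicate 4, and 1 without wild type replicate 1, 2 or 3 or Il1b KO replicate 1. Leaving out an array makes overlap less likely for any gene by construction. The share of all genes was not computed for these counts, so a rise in them is not a result about the 10 genes.

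**Figure D2:**
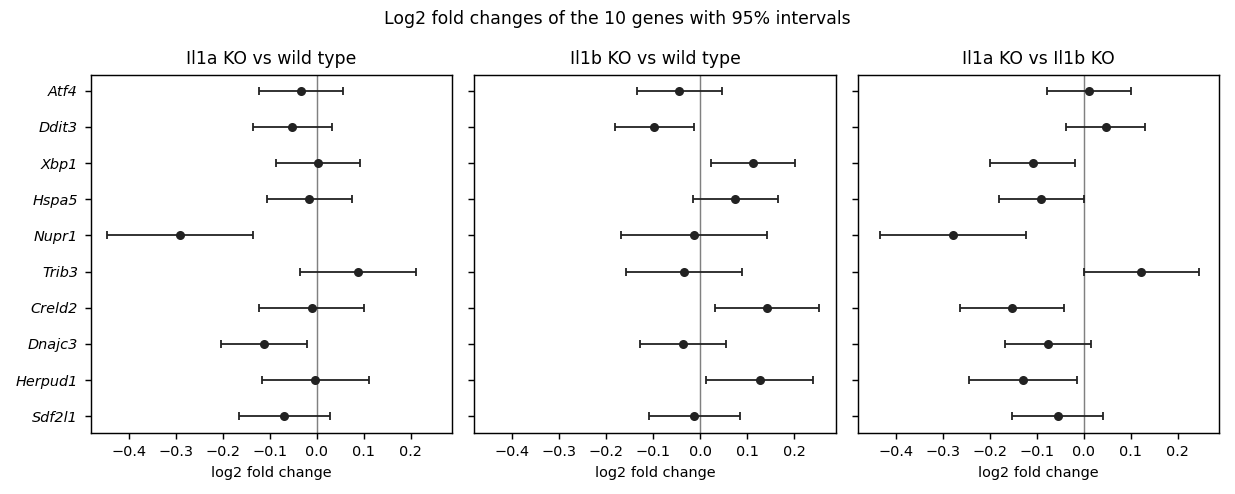
Log2 fold change (horizontal axis) of each of the 10 genes for either knockout over wild type and for the Il1a KO over the Il1b KO, with 95% intervals from limma that are not adjusted for the number of genes. Apart from Nupr1 at -0.29 and -0.28 in the comparisons that involve the Il1a KO, the estimates lie between -0.15 and 0.14.

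In the PERK and ATF4 branch, Nupr1 had the largest difference among the 10 genes, while Ddit3, Atf4 and Trib3 differed by at most 0.12 on the log2 scale. Nupr1 encodes a small stress-induced nuclear protein that acts downstream of ATF4. Its values were 9.46, 9.75, 9.67 and 9.53 in Il1a KO, 9.73, 10.01, 9.95 and 9.83 in Il1b KO, and 9.80, 9.97, 9.89 and 9.91 in wild type. Every Il1a KO array lay below every wild-type array, and 1 Il1b KO array lay within the range of the Il1a KO. The means were 9.60 ± 0.130 in the Il1a KO, 9.88 ± 0.123 in the Il1b KO and 9.89 ± 0.0704 in wild type (SD, n = 4 each). The Il1a KO was 1.22-fold below wild type (95% interval 1.10-fold to 1.36-fold, log2 fold change -0.29, SE 0.0720, limma adjusted p = 0.199) and 1.21-fold below the Il1b KO (1.09-fold to 1.35-fold, log2 difference -0.28, limma adjusted p = 0.174). With array quality weights the comparison with wild type passed (log2 fold change -0.30, limma adjusted p = 0.0462). The comparison between the knockouts did not pass with these weights (log2 difference -0.23, limma adjusted p = 0.132). Over all genes, 306 passed in the Il1a KO against wild type with weights and 34 without them. By unadjusted p Nupr1 ranked 141 among the 19938 genes in the Il1a KO against wild type.

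The array that stood apart by sex-linked genes, Il1a KO replicate 1, had the lowest Nupr1 value of all, and without it the log2 fold change against wild type was -0.24 (limma adjusted p = 0.67). The same array was the lowest of its group in markers of infiltrating monocytes and macrophages (list mean 8.84, against 8.96 to 9.11 in the other Il1a KO arrays) and of neutrophils (7.54, against 7.63 to 7.89). Il1b KO replicate 1 was likewise the lowest of its group in Nupr1 (9.73) and in both lists (8.90 and 7.45). In wild type, replicate 2 had the highest Nupr1 value of its group (9.97) and the lowest mean of both lists (8.99 and 7.89). Wild type replicate 1 had the lowest Nupr1 value of that group (9.80), with list means of 9.04 and 8.00, below those of replicates 3 and 4. Over the groups, the mean of 11 monocyte and macrophage markers was 8.84 to 9.11 in the Il1a KO, 8.90 to 9.29 in the Il1b KO and 8.99 to 9.32 in wild type, and 0 of 11 passed in any comparison. The mean of 12 neutrophil markers was 7.54 to 7.89 in the Il1a KO, 7.45 to 8.10 in the Il1b KO and 7.89 to 8.23 in wild type. All 12 had a negative log2 fold change in the Il1a KO, where 0 passed. In the Il1b KO 10 of 12 did, and Ly6g passed, beside 0.813% of all genes. The part of these cells in the Nupr1 values was not tested. Of the 20 measured genes nearest to Nupr1 on chromosome 7, 1 passed in the Il1b KO, Gdpd3 (log2 fold change 3.0, limma adjusted p = 3.3e-09). In that knockout Nupr1 had a log2 fold change of -0.01 (95% interval -0.17 to 0.14).

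Ddit3 encodes CHOP, the transcription factor that links lasting stress to cell death. Its values were 8.69, 8.72, 8.71 and 8.68 in Il1a KO, 8.66, 8.59, 8.69 and 8.68 in Il1b KO, and 8.76, 8.78, 8.80 and 8.67 in wild type. Wild type had the 3 highest arrays and the Il1b KO the lowest, with overlap through wild type replicate 4. The log2 fold change was -0.10 in the Il1b KO (95% interval -0.18 to -0.01, limma adjusted p = 0.311) and -0.05 in the Il1a KO (-0.14 to 0.03, limma adjusted p = 0.833). Between the knockouts it was 0.05 (limma adjusted p = 0.84).

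Atf4, the transcription factor at the head of this branch, had 9.22, 9.18, 9.23 and 9.16 in Il1a KO, 9.13, 9.22, 9.24 and 9.16 in Il1b KO, and 9.16, 9.26, 9.30 and 9.21 in wild type. The 3 groups overlapped almost completely, with log2 fold changes of -0.03 in the Il1a KO, -0.04 in the Il1b KO and 0.01 between the knockouts (limma adjusted p of 0.929, 0.702 and 0.975). Trib3, a pseudokinase induced by ATF4 and CHOP that restrains ATF4, had 7.31, 7.23, 7.31 and 7.38 in Il1a KO, 7.16, 7.25, 7.04 and 7.30 in Il1b KO, and 7.30, 7.21, 7.16 and 7.22 in wild type. It had the highest log2 fold change of the 10 genes in the Il1a KO against wild type (0.09, 95% interval -0.03 to 0.21, limma adjusted p = 0.77). Between the knockouts it had a log2 difference of 0.12 (0.00 to 0.25, limma adjusted p = 0.64). Trib3 and Hspa5 lie on chromosome 2, as Il1a and Il1b do, with 173 and 844 measured genes between them and Il1a. Of the 20 nearest measured neighbours of each, 0 passed in any comparison.

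The precision behind these values was set by 4 arrays a group. The SD within groups was 0.0422 for Ddit3, 0.0486 for Xbp1, 0.0487 for Atf4 and 0.0497 for Hspa5, against a median of 0.0841 over all genes. Only Nupr1 (0.111) exceeded that median. The 95% intervals for the Il1b KO against wild type ran from -0.18 at the lowest (Ddit3) to 0.25 at the highest (Creld2). In the Il1a KO they ran from -0.45 (Nupr1) to 0.21 (Trib3).

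Whether the genes moved together from array to array was examined with the group means removed. Hspa5 was set against each of the other 9 genes over 12 arrays, and p came from all 13824 reorderings within groups (exact permutation test, two-sided). The highest correlations were those with Dnajc3 (Pearson r = 0.743, Spearman rho = 0.65, exact permutation p = 0.05 and 0.102, adjusted over the 9 pairs 0.241 and 0.307) and Creld2 (r = 0.689, rho = 0.587, exact permutation p = 0.0535 and 0.0815, adjusted 0.241 and 0.307). Atf4 followed with r = 0.489 and rho = 0.378 (exact permutation p = 0.196 and 0.304, adjusted 0.297 and 0.547). The lowest were those with Herpud1 (r = -0.59, rho = -0.322, exact permutation p = 0.198 and 0.421, adjusted 0.297 and 0.555) and Trib3 (r = -0.457, rho = -0.497, exact permutation p = 0.0887 and 0.0961, adjusted 0.266 and 0.307). None of the 9 pairs passed after adjustment. Wild type replicate 1 and Il1a KO replicate 3 lay farthest from the median of Hspa5, and without them r was 0.448 for Dnajc3, 0.576 for Creld2, 0.551 for Atf4, -0.246 for Herpud1 and -0.42 for Trib3. Sdf2l1, Xbp1, Ddit3 and Nupr1 had r of 0.397, 0.121, 0.0785 and 0.0405 with rho of 0.364, -0.028, 0.308 and -0.035 (exact permutation p of r 0.149, 0.805, 0.866 and 0.898, adjusted 0.297, 0.898, 0.898 and 0.898, and p of rho 0.228, 0.946, 0.432 and 0.919, adjusted 0.513, 0.946, 0.555 and 0.946). A within-group value could not be given, since a group holds only 4 arrays.

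**Figure D3:**
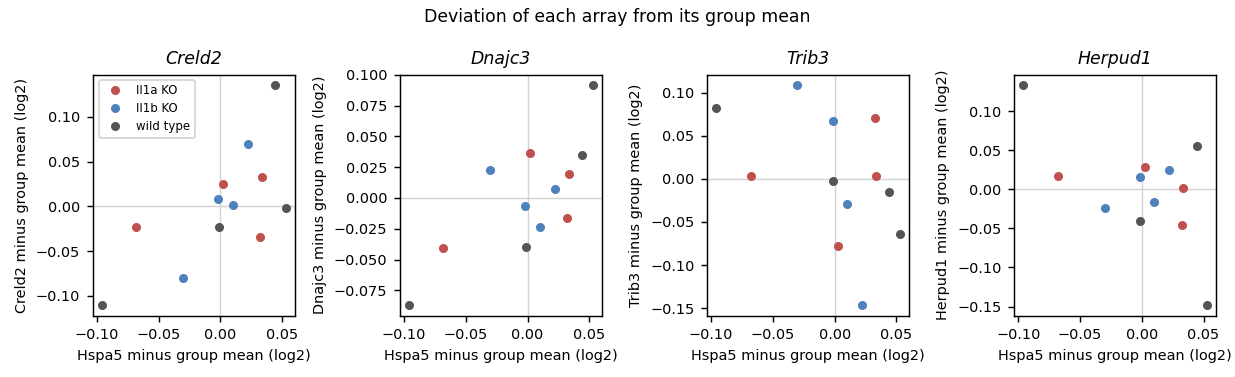
Deviation of each array from its group mean (log2) for Hspa5 on the horizontal axes and for Creld2, Dnajc3, Trib3 and Herpud1 on the vertical axes, coloured by group, with 4 arrays each of Il1a KO, Il1b KO and wild type. Wild type replicate 1, the leftmost point, is lowest in Creld2 and Dnajc3 and highest in Herpud1.

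The genes whose deviations were most like those of Hspa5 over the 12 arrays were Rbm7 (r = 0.965), Osgin2 (0.930), Mrpl3 (0.930), Vamp3 (0.925) and Itgb8 (0.920). For Ddit3 they were Reps2 (0.921), Bcas2 (0.920), Cdh8 (0.918), Ms4a4d (0.913) and Dlc1 (0.904). These were picked as the highest of all 19938 genes over arrays that share their normalisation, so they are a description. None of the 10 endoplasmic reticulum stress genes was among them.

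The rest of the pathway was described by 4 lists of its sensors, targets, chaperones and degradation genes. The list of sensors and proteases includes Ern1, Eif2ak3 and Atf6. It also holds Eif2ak1, Eif2ak2 and Eif2ak4, eIF2alpha kinases that are not sensors of the endoplasmic reticulum. Of its 10 listed genes 8 were measured, and 0 passed in any comparison. At an unadjusted p under 0.05 there were 0, 1 and 0 of 8, beside 8.32%, 13% and 7.79% of all genes. The medians of the 8 genes were 0.01 in the Il1a KO, -0.01 in the Il1b KO and 0.01 between the knockouts on the log2 scale. In the Il1a KO the smallest p belonged to Ern1, the gene of IRE1 (log2 fold change -0.07), Eif2ak1, the heme-regulated eIF2alpha kinase (0.04), and Atf6 (-0.05). In the Il1b KO it belonged to Eif2ak1 (0.08), Eif2ak4, the amino-acid sensor GCN2 (-0.10), and Eif2ak2, the double-stranded RNA sensor PKR (-0.15). Between the knockouts these were Eif2ak4 (0.09), Eif2ak2 (0.16) and Ern1 (-0.06), and the limma adjusted p of these 9 values ran from 0.368 to 0.886.

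Of the targets of the PERK and ATF4 branch, 30 of 32 listed genes were measured. In the Il1a KO 1 fell and 0 rose, in the Il1b KO 0 passed and between the knockouts 0 passed. The shares of all genes that passed were 0.171%, 0.813% and 0.652%. At an unadjusted p under 0.05 there were 3, 2 and 4 of 30, beside 8.32%, 13% and 7.79% of all genes. The medians were -0.03, 0.00 and -0.02. The one that fell was Atf3, a stress-induced transcription factor that is also an early marker of injured neurons. Its values were 9.14, 8.99, 9.04 and 8.99 in Il1a KO, 9.20, 9.31, 9.43 and 9.26 in Il1b KO, and 9.35, 9.30, 9.48 and 9.51 in wild type. Every Il1a KO array lay below every other array. Atf3 was 1.29-fold lower than in wild type (log2 fold change -0.37, SE 0.0606, limma adjusted p = 0.0272), while the Il1b KO had a log2 fold change of -0.11 (limma adjusted p = 0.472). Set against each other, the knockouts differed by -0.26, which did not pass (limma adjusted p = 0.0998). The Atf3 call was lost without wild type replicate 3 or 4 (limma adjusted p of 0.0947 and 0.123), Il1a KO replicate 2, 3 or 4 (0.091, 0.116 and 0.104) or Il1b KO replicate 4 (0.0526). It was kept without Il1a KO replicate 1 (log2 fold change -0.40, limma adjusted p = 0.0386).

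Next to Atf3 by p in the Il1a KO stood Eif4ebp1, a repressor of translation that ATF4 induces (log2 fold change -0.14), and Shmt2, a mitochondrial enzyme of serine use (-0.13). In the Il1b KO these were Eif4ebp1 (-0.17), Jdp2, a repressor related to Atf3 (0.11), and Atf3. Between the knockouts they were Atf3, Psat1, an enzyme of serine synthesis (0.11), and Chac1, which degrades glutathione (-0.13). The limma adjusted p of these values other than those of Atf3 ran from 0.133 to 0.554.

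The list for the ATF6 and XBP1 branch held the other calls. Besides chaperones and folding enzymes it includes genes of protein entry, signal peptide removal and export, such as Sec61a1, Ssr1, Spcs3 and Sec24d. All 26 listed genes were measured: 0 passed in the Il1a KO, 1 rose and 1 fell in the Il1b KO, and 1 passed between the knockouts. The shares of all genes that passed were 0.171%, 0.813% and 0.652%. At an unadjusted p under 0.05 there were 2, 5 and 8 of 26, beside 8.32%, 13% and 7.79% of all genes. The medians were -0.03, 0.03 and -0.04. Ssr1 encodes a subunit of the translocon-associated protein complex of the endoplasmic reticulum. Its values were 11.71, 11.75, 11.69 and 11.71 in Il1a KO, 11.42, 11.42, 11.37 and 11.47 in Il1b KO, and 11.73, 11.71, 11.76 and 11.71 in wild type. The Il1b KO arrays lay below all 8 others, which differed little among themselves. Ssr1 was 1.24-fold lower in the Il1b KO than in wild type (log2 fold change -0.31, SE 0.0352, limma adjusted p = 4.37e-04), and the Il1a KO lay above the Il1b KO by 0.30 on the log2 scale (limma adjusted p = 7.73e-04). In the Il1a KO against wild type its log2 fold change was -0.01 (95% interval -0.09 to 0.06). Ssr1 has Ly86, a gene that fell in the Il1b KO (log2 fold change -1.07, limma adjusted p = 2.21e-07), among its 20 nearest measured neighbours on chromosome 13, and 0 of the other 19 passed. The influence of DNA carried along with a targeted allele or of substrain differences cannot be told apart from that of the missing cytokine here.

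Fkbp2, a prolyl isomerase of the endoplasmic reticulum, had 10.30, 10.12, 10.22 and 10.21 in Il1a KO, 10.48, 10.44, 10.27 and 10.29 in Il1b KO, and 10.11, 10.17, 10.03 and 10.10 in wild type. All Il1b KO arrays lay above all wild-type arrays, and the Il1a KO overlapped both. It rose 1.21-fold in the Il1b KO (0.27 on the log2 scale, SE 0.0569, limma adjusted p = 0.0486), close to the threshold of 0.05. Leaving out any array other than Il1b KO replicate 3 ended the call, with a limma adjusted p of 0.0505 to 0.158. The call was also lost when each array was centred on its median (limma adjusted p = 0.061) or quantile-normalised again (0.12). The third by p in that comparison was Spcs3, a subunit of signal peptidase (log2 fold change 0.18, limma adjusted p = 0.134).

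In the Il1a KO against wild type, the smallest p of this list were those of Sec24d, a coat protein of export vesicles (log2 fold change -0.12), Sec61a1, the channel of the translocon (-0.09), and Fkbp2 (0.11), with limma adjusted p of 0.414, 0.589 and 0.667. Between the knockouts, after Ssr1, they were those of the lectin chaperone Calr (-0.16) and the disulfide isomerase Pdia6 (-0.17), with limma adjusted p of 0.186 and 0.278. In this comparison 7 of 26 genes had a positive log2 difference, beside 47.3% of all genes. In 6 of 26 the Il1a KO arrays lay below the Il1b KO arrays without overlap, beside the 4.69% given above. The list was chosen with earlier results of these data known and its genes share the same arrays, so these counts are a description. The mean of the 26 genes was 10.18 to 10.20 in the Il1a KO, 10.23 to 10.24 in the Il1b KO and 10.16 to 10.23 in wild type.

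**Figure D4:**
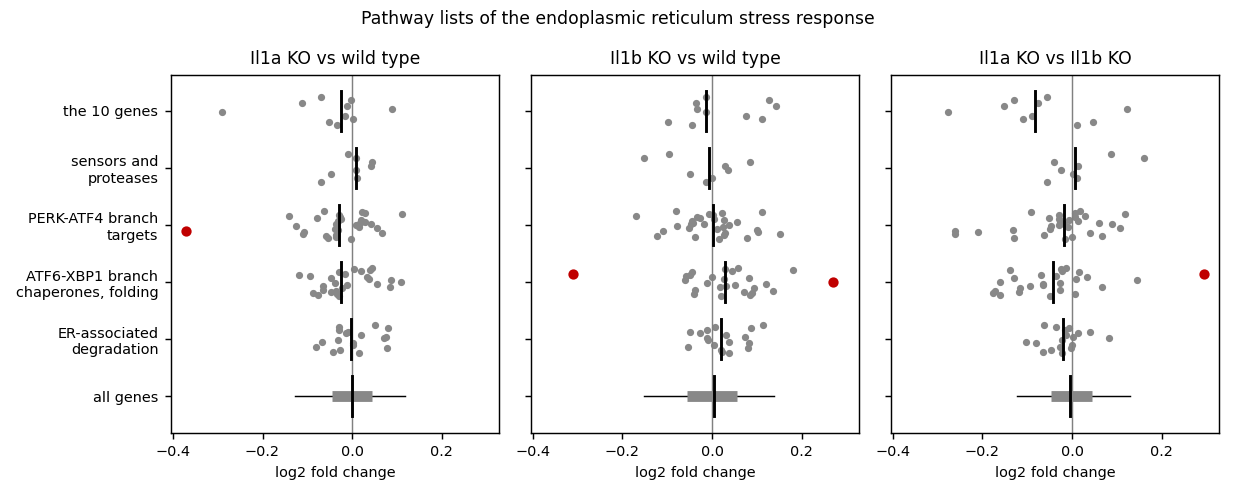
Log2 fold changes (horizontal axes) of the 10 genes and of 4 pathway lists in the 3 comparisons, 1 point per gene, red where limma's adjusted p was under 0.05, with black bars at the medians. The row for all genes has a line at their median, a thick bar between percentiles 25 and 75 and a thin line between percentiles 5 and 95; the list medians lie within 0.1 of it.

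Of the genes of endoplasmic-reticulum-associated degradation, 18 of 19 listed were measured and 0 passed in any comparison, with medians of -0.00, 0.02 and -0.02. At an unadjusted p under 0.05 there were 0, 2 and 0 of 18, beside 8.32%, 13% and 7.79% of all genes. The smallest p in the Il1a KO were those of Herpud2, a homologue of Herpud1 (log2 fold change 0.08), Derl3, of the Derlin family of retrotranslocation proteins (-0.08), and Sdf2, a homologue of Sdf2l1 (0.05). In the Il1b KO they were those of Sdf2 (0.11), Herpud2 (0.09) and Edem2, a mannosidase-like protein that marks misfolded glycoproteins (0.08). Between the knockouts they were those of Edem2 (-0.08), its relative Edem3 (-0.10) and Sdf2 (-0.06). The limma adjusted p of these 9 values ran from 0.252 to 0.843.

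**Figure D5:**
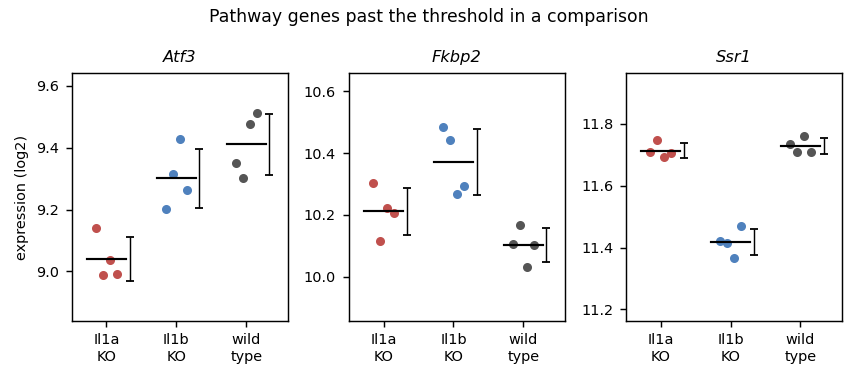
Expression on the log2 scale of Atf3, Fkbp2 and Ssr1, the pathway genes that passed in a comparison, in the 4 arrays each of Il1a KO, Il1b KO and wild type. Points are arrays, black lines are group means and bars are 1 SD; Atf3 is lowest in the Il1a KO, Ssr1 is lowest in the Il1b KO and Fkbp2 is highest in the Il1b KO.

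Markers of other cell types are given here beside the calls of Atf3, Ssr1 and Fkbp2. Of the mature oligodendrocyte markers, 10 of 10 had log2 fold changes above 0 in both knockouts, and their list mean was 11.66 to 11.83 in the Il1a KO, 11.61 to 11.73 in the Il1b KO and 11.49 to 11.65 in wild type. Of the skeletal muscle markers, 10 of 10 had log2 fold changes below 0 in both, at 6.91 to 6.98 in the Il1a KO, 6.82 to 6.98 in the Il1b KO and 6.90 to 7.34 in wild type. Of these markers 0 passed in any comparison. Homeostatic microglia markers had a list mean of 8.51 to 8.61 in the Il1a KO, 8.42 to 8.51 in the Il1b KO and 8.39 to 8.56 in wild type. Between the knockouts 1 of 9, Gpr34, passed (log2 difference 0.31, limma adjusted p = 0.0299), beside 0.652% of all genes. In that comparison 4 of the 9 had a positive and 5 a negative log2 difference, with a median of -0.0019. Markers of B and plasma cells, which carry a large endoplasmic reticulum, lay at 6.37 to 6.41 in the Il1a KO, 6.34 to 6.49 in the Il1b KO and 6.29 to 6.55 in wild type. Endothelial markers lay at 9.40 to 9.45 in the Il1a KO, 9.43 to 9.52 in the Il1b KO and 9.38 to 9.53 in wild type, and 0 genes of both lists passed. The part of these cell types in the 3 calls was not tested.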

How the data were processed

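The deposited table of the authors gave a log2 expression value for every probe set in each array. The submitters' processing notes name RMA, Partek, GCOS 1.4 and limma without their roles; that the values are RMA summaries is inferred from this list and from their range (2.97 to 14.4). RMA gives the arrays similar distributions, here with medians of 7.67 to 7.72, and compresses the fold changes of dim genes. Neither a genome build nor detection calls are given in the sources used here. Among the 35557 probe sets, 21789 had 1 gene symbol, 1621 had several and 12147 had no listed gene; the first were used, 1 brightest set per gene, with symbols updated through Entrez identifiers in RefSeq.

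All 12 arrays entered 1 linear model, with a mean for each genotype, in limma 3.58.1 in R 4.3.3 (moderated statistics, no trend, two-sided, Benjamini-Hochberg over 19938 genes, threshold 0.05) and was tested on simulated data. Named were the 10 genes, the targeted genes, in each list and comparison the calls and the 3 smallest p, and the 5 genes most like Hspa5 and Ddit3; Tox3, Gdpd3, Ly86, Ly6g, Gpr34, Xist and Eif2s3y were named after their values were seen. The members and lists were chosen with earlier results of these data known. Alternatives were another normalisation, centring, a filter on the dimmest 25% of genes, the mean of probe sets, a trend, array weights, a replicate block, 2-group fits and leaving out each array. Deviations of same-numbered arrays had r between -0.374 and 0.441 over 12 pairs, within the range of the 36 other pairs (-0.511 to 0.568). The numbers were therefore not treated as pairs, though single genes can still follow them. The number of arrays limits the precision.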

Additional observations from a re-analysis of the deposited data

Results flagged for a closer look

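Ssr1 differed between the knockouts. Its log2 difference between the Il1a KO and the Il1b KO was 0.30 (limma adjusted p = 7.73e-04), with the 4 Il1a KO arrays at 11.69 to 11.75 and the 4 Il1b KO arrays at 11.37 to 11.47. Of the 39 groups of 4 arrays examined for the 10 genes and for Atf3, Fkbp2 and Ssr1, 0 held an array that stood apart by Dixon's criterion, which by chance marks about 1 group in 20.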

How the results depend on the processing

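The absence of calls among the 10 genes held in each fit without 1 array (0 to 0 calls in the 3 comparisons) and under re-normalisation, centring, the filter on dim genes, probe set means, the trend and the 2-group fits. The exception was Nupr1. It passed in the Il1a KO with array quality weights (1 of 10) and with the replicate block (1 of 10, adjusted p = 0.0401), and between the knockouts with the replicate block (1 of 10, adjusted p = 0.0189); the block also ended the calls of Atf3 (adjusted p = 0.0664) and Fkbp2 (0.0773). Each array matched its own number best in 4 of 24 comparisons with another group. For Nupr1, the replicates from lowest to highest were 1, 4, 3 and 2 in both knockouts, and 1, 3, 4 and 2 in wild type. The block removes such a shared order, and what lies behind that order was not tested.

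Over the 4 pathway lists, the calls in the Il1a KO (1) numbered 0 with the block or in the 2-group fit and 2 with array weights. In the Il1b KO (2) they numbered 1 with re-normalisation, centring, the block or the 2-group fit and 4 with weights. Between the knockouts (1) they numbered 3 with the trend and 2 with weights. Without 1 array the ranges were 0 to 1, 1 to 2 and 1 to 1. Over all genes, the Il1a KO count (34) was 74 with the trend, 306 with weights, 15 in the 2-group fit and 18 to 49 without 1 array (18 without wild type replicate 4, 19 without Il1a KO replicate 3 or 4). The Il1b KO count (162) was 309, 1145, 85 and 106 to 177 in the same order (106 without wild type replicate 4, 107 without Il1b KO replicate 1). The count between the knockouts (130) was 244 with weights and 88 to 146 without 1 array.

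Genes without overlap among the 10 numbered 2 in the Il1a KO and 1 in the Il1b KO after re-normalisation, and between the knockouts (5) they numbered 4 after re-normalisation or centring. The share of all genes was not computed under these settings, so these shifts are not a result about the 10 genes. Without 1 array the genes without overlap numbered 1 to 3, 0 to 2 and 5 to 7 between the knockouts, where fewer arrays overlap less by construction. Signs turned for values near 0: Xbp1 in the Il1a KO (-0.0074 re-normalised, -0.0255 with weights, -0.0236 to 0.0218 without 1 array) and Herpud1 (0.0155 with weights, -0.0519 to 0.0415). Without 1 array they also turned for Hspa5 (-0.0474 to 0.0072) and Creld2 (-0.0472 to 0.0345) in the Il1a KO, for Nupr1 (-0.056 to 0.0362), Sdf2l1 (-0.0338 to 0.0193) and Trib3 (-0.0709 to 0.0139) in the Il1b KO, and for Atf4 between the knockouts (-0.0069 to 0.0287). With the values as they stand, 1 of 9 correlations with Hspa5 passed (Creld2, r = 0.84, adjusted permutation p = 0.00369), and the sign turned for Ddit3 (-0.338) and Herpud1 (0.144). It turned for Xbp1 (rho -0.028, and -0.198 without 2 arrays) and Nupr1 (rho -0.035, and -0.108).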
